A study of Mus musculus with 15 samples.

Results

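The genes described here are 34 genes of blood and lymphatic vessel endothelium, the cell layer that lines vessels, measured by RNA-seq in embryonic mouse pancreas. They were taken by gene symbol: each gene identifier of the deposited count table was matched to its GENCODE mouse M21 symbol, and all 34 symbols were found among the 25292 genes of the table. They comprise 19 pan-endothelial receptors and surface or junction genes, 7 transcription factors, 2 genes of haemostasis and vascular tone, 3 genes of tip cells and apelin signalling, 1 lymphatic gene and 2 genes of fenestrated or other capillaries. All 34 passed the filter on low counts and were tested, among 16245 genes in all.

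RNA was measured in 15 libraries, in 5 groups of 3. The question was what signalling through S1pr2, a receptor for the lipid sphingosine 1-phosphate (S1P), does in the developing pancreas. Wild-type (wt) pancreata and pancreata labelled S1pr2 null were collected fresh at 14.5 days post coitum (dpc). The other 3 groups were pancreata of 14.5 dpc, dorsal buds according to the methods of the study, kept for 2 days in air-liquid interface culture in serum-free medium. One was the control without JTE013 or CTGF, one received JTE013 (an S1pr2 antagonist) at 15 uM (JTE), and one received JTE013 at 15 uM together with CTGF, a secreted matricellular protein, at 50 ng/ml (JTE + CTGF). The labels give C57/Bl6J as the strain. The null allele carries a Neo cassette in exon 1 of S1pr2 in every cell of the embryo, so it is not restricted to endothelium, and an explant on a filter has vessels but no circulation. Each library pooled up to 3 pancreata, and the samples were whole tissue, so the endothelial cells in them were not sorted.

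Library totals lay between 11402804 and 13828737 reads assigned to genes, and the biological coefficient of variation of the fit was 7.3%. The 3 libraries of JTE varied most, with JTE 2 and JTE 3 being the pair furthest apart among replicates. S1pr2 itself had 858, 796 and 812 reads in the wt libraries and 1486, 1368 and 1609 in the libraries labelled S1pr2 null (log2 fold change 0.83 ± 0.07 SE, adjusted p = 4.5e-07). The reads went against the label in direction, but counts per gene do not tell from which exons they came, so they do not check whether a functional transcript was made. The group is therefore called the libraries labelled S1pr2 null.

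Endothelial cells grow and sprout under vascular endothelial growth factors, which act on the receptors Kdr, Flt1 and Flt4, and they settle into stable vessels under angiopoietins, which act on Tek with its partner Tie1. Transcription factors of the ETS, SOXF and GATA/Tal1 families keep endothelial genes on. In the pancreas, vessels grow into the epithelium as it branches, exchange signals with it, and supply the islets through capillaries with fenestrae, small pores spanned by a diaphragm made of Plvap.

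The promoters of 4 of the genes are shown because they belong to the members that moved most between JTE and control, namely the 3 that fell most and the 1 that rose most among members with a single promoter window. Each is the RefSeq window from 250 bases before to 50 bases after the annotated start, 5′ to 3′ along the gene, in build GRCm38.p6. Capitals mark 3 motifs, each searched on both strands. Sites of ETS factors were searched as AGGAAG, which is longer than their GGAA core, so other GGAA cores are left unmarked. Sites of SOXF factors, the family of Sox7, Sox17 and Sox18, were searched as AACAAT. Sites of the GATA family, whose members work with Tal1 and Lmo2 in blood and vessels, were searched as AGATAA. No 2 of the marked matches overlap.
Tek (chr4:94739039-94739338, plus strand): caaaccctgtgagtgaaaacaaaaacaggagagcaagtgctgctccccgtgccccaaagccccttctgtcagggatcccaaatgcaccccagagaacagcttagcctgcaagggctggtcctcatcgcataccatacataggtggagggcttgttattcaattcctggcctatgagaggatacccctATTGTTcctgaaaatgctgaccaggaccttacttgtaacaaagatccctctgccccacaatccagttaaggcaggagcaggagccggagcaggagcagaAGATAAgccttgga
Flt1 (chr5:147725962-147726261, minus strand): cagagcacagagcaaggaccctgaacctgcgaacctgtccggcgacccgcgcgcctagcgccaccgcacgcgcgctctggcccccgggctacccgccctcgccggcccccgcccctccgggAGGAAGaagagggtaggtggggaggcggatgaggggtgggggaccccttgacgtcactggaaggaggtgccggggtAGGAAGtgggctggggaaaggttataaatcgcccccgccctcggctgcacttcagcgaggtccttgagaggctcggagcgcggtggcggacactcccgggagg
Clec14a (chr12:58269209-58269508, minus strand): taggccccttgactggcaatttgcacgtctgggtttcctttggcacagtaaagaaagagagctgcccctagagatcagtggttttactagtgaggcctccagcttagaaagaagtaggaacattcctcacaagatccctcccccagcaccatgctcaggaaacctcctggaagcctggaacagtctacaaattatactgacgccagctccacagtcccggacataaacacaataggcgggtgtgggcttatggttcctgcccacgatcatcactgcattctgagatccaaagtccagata
Esm1 (chr13:113209409-113209708, plus strand): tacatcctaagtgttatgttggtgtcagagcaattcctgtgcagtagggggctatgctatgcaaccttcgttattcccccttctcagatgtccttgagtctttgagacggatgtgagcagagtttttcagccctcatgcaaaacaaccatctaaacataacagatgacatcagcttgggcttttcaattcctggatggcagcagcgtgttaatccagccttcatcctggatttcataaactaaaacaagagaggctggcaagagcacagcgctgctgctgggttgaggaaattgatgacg

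Tek held 1 SOXF match on the reverse strand and 1 GATA match, and Flt1 held 2 ETS matches. The windows of Clec14a and Esm1 held none of the 3 motifs as searched, although both hold GGAA. Windows were found for 17 of the 34 members, 22 windows in all. AGGAAG was in 50% of these windows and in 35.4% of all 32851 windows. AACAAT was in 18.2% of the members' windows against 10.7% of all, and AGATAA in 13.6% against 11.2%. The matches describe the letters only and say nothing of binding in these tissues.

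In fresh wt pancreas, the levels of the endothelial genes per length were compared as RPKM, the read count scaled by exonic length and library size. Cdh5, the cadherin of endothelial junctions, was highest at 41.6 ± 0.30 RPKM (SD, n = 3), and next came Cd34 (a surface sialomucin, 38.7 ± 2.12 RPKM), Plvap (37.1 ± 0.48 RPKM), Eng (a TGF-beta and BMP coreceptor, 30.1 ± 2.20 RPKM) and Aplnr (the apelin receptor, 28.5 ± 0.88 RPKM). The lowest were Ptprb (the phosphatase that acts on Tek, 1.66 ± 0.05 RPKM) and Tal1 (1.98 ± 0.12 RPKM). The defining genes Pecam1, Cdh5 and Kdr were present in every library, with normalised counts of at least 747 for Kdr and 780 for Pecam1. In control explants the order per length differed, with Cdh5 (52.5 ± 6.73 RPKM), Cd34 (51.8 ± 2.05 RPKM) and Gpihbp1 (33.9 ± 0.17 RPKM) highest and Vwf (0.75 ± 0.12 RPKM) lowest.

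**Figure D1:**
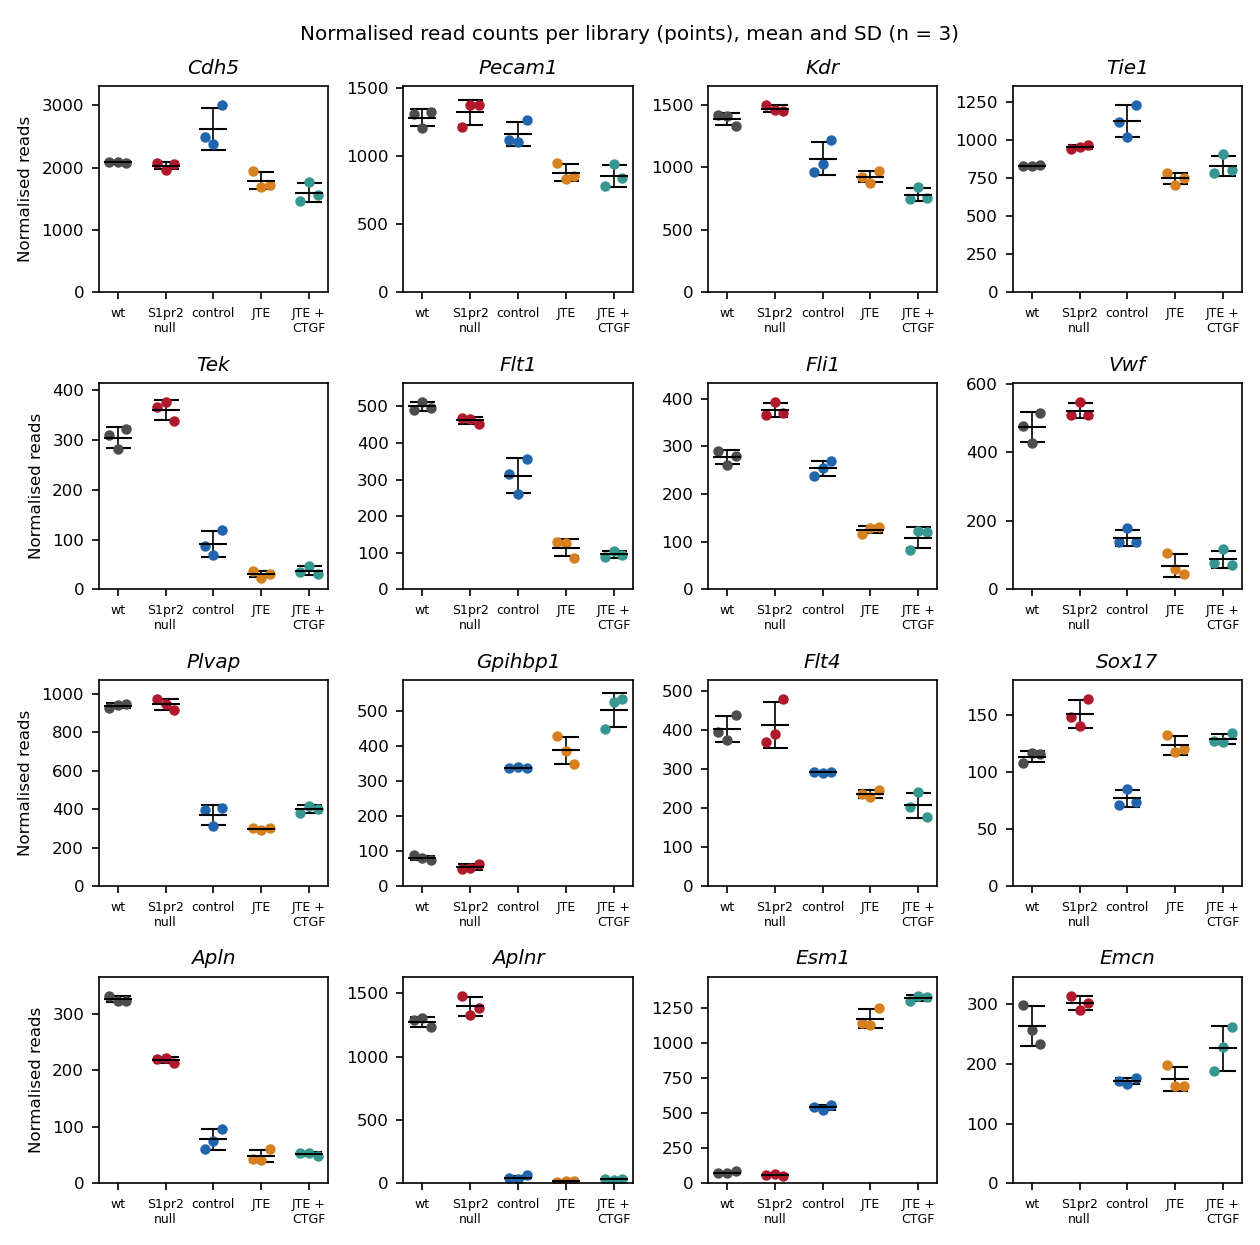
Normalised read counts (vertical axes, from 0) of 16 endothelial genes in the 5 groups, with 1 point per library, a bar at the mean and error bars of 1 SD (n = 3). Aplnr, Apln, Tek and Vwf sit high in both fresh groups and low in all 3 explant groups, whereas Esm1 and Gpihbp1 do the reverse, and Cdh5, Tie1, Flt1 and Fli1 are lower in JTE than in control.

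The first comparison asked how the endothelial genes differ when S1pr2 is blocked acutely in explants. In JTE, 26 of the 34 members fell relative to control, 2 rose and 6 did not pass the test. Of all genes tested, 52.2% were called, 26.2% lower and 25.9% higher. The median log2 fold change was -0.35 over the members and 0.00 over all genes. In these whole-tissue samples, fewer endothelial cells and less RNA per endothelial cell cannot be told apart. Normalised counts (reads scaled to a common effective library size) did not overlap between the groups for 27 of the 34 members, 24 of them lower in JTE. Among all genes 56.7% did not overlap, 28.3% being lower in JTE and 28.4% higher.

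Junction and surface genes that mark all endothelium fell moderately. Cdh5 had 2484, 2378 and 3006 normalised counts in control and 1942, 1692 and 1725 in JTE (log2 fold change -0.55 ± 0.08 SE, adjusted p = 2.37e-05). Pecam1, the platelet endothelial adhesion molecule, had 1120.1, 1104 and 1268 in control and 950.1, 831 and 858 in JTE (log2 fold change -0.40 ± 0.08 SE, adjusted p = 0.000356). All 3 JTE libraries lay below all 3 control libraries for both genes. Esam, another junction molecule, fell by 0.68 on the log2 scale, and Ecscr, Cd34, She and Ramp2 (the partner that makes Calcrl an adrenomedullin receptor) fell by 0.56, 0.32, 0.38 and 0.31. Clec14a fell by 0.99, Rasip1 by 0.29, Mmrn2 by 0.25 and Eng by 0.17, while Egfl7 (log2 fold change -0.19 ± 0.09 SE, adjusted p = 0.0767) and Calcrl (log2 fold change -0.16 ± 0.17 SE, adjusted p = 0.442) did not pass the test.

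The angiopoietin receptor Tek, its partner Tie1 and the phosphatase Ptprb fell as well. Tek had 87.1, 68.4 and 119.8 normalised counts in control and 36.0, 23.5 and 31.6 in JTE, a 3.01-fold lower level (log2 fold change -1.59 ± 0.21 SE, adjusted p = 8.32e-06). Tie1 had 1123, 1020.4 and 1234 in control and 786, 709 and 753 in JTE (log2 fold change -0.59 ± 0.07 SE, adjusted p = 1.96e-06). Ptprb had 121, 113 and 124 in control and 58.2, 66.4 and 42.8 in JTE (log2 fold change -1.10 ± 0.14 SE, adjusted p = 6.52e-06). None of these 3 genes overlapped between the groups, and JTE 2 was the lowest library for Tek.

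The VEGF receptors fell unequally. Flt1, which binds Vegfa, Vegfb and Pgf, had 315, 261 and 355 normalised counts in control and 128, 126 and 86.5 in JTE, 2.75-fold lower (log2 fold change -1.46 ± 0.13 SE, adjusted p = 8.88e-08). Kdr, the main signalling receptor for Vegfa, had 966, 1029 and 1217 in control and 927, 878 and 967 in JTE (log2 fold change -0.21 ± 0.07 SE, adjusted p = 0.0214). Flt4, the receptor for Vegfc and Vegfd that becomes restricted largely to lymphatic vessels, had 292, 289.5 and 293 in control and 235, 228 and 247 in JTE (log2 fold change -0.30 ± 0.11 SE, adjusted p = 0.0333). Flt1 and Flt4 did not overlap between the groups, whereas for Kdr JTE 3 reached the lowest control library.

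Among transcription factors, 4 of 7 fell (Fli1, Sox7, Tal1 and Lmo2), Sox17 rose, and Erg and Sox18 did not pass the test. Fli1, an ETS factor, had 237, 254 and 269.7 normalised counts in control and 116, 129 and 130.2 in JTE (log2 fold change -1.02 ± 0.11 SE, adjusted p = 1.25e-06). Its close relative Erg had 245, 210.1 and 248 in control and 245, 191 and 220.4 in JTE (log2 fold change -0.10 ± 0.10 SE, adjusted p = 0.443). Sox17, a SOXF factor, had 71.1, 85.5 and 73.9 in control and 132, 117 and 120.0 in JTE (log2 fold change 0.68 ± 0.11 SE, adjusted p = 9.65e-05). Fli1 was lower and Sox17 higher in every JTE library than in any control library, and Erg overlapped. Fli1, Tal1 and Lmo2 are also used by blood cells, and Sox17 is also used by embryonic gut and biliary epithelium.

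Both genes of haemostasis and tone fell. Vwf, the von Willebrand factor stored in endothelium and platelets, had 137, 178 and 139 normalised counts in control and 106, 58.2 and 43.7 in JTE (log2 fold change -1.15 ± 0.23 SE, adjusted p = 0.000478). Nos3, the endothelial nitric oxide synthase, fell by 1.04 ± 0.14 (SE) on the log2 scale, with edgeR adjusted p = 1.22e-05. JTE 1 was the highest of the JTE libraries for both genes, and neither gene overlapped with control.

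The tip cell and apelin genes went both ways. Esm1, a proteoglycan secreted by tip cells and induced by VEGF, had 543, 523 and 559 normalised counts in control and 1146, 1127 and 1253 in JTE, a 2.17-fold rise (log2 fold change 1.12 ± 0.06 SE, adjusted p = 3.02e-10). Apln, the apelin peptide made by tip cells, had 61.6, 74.4 and 96.8 in control and 42.3, 40.8 and 60.5 in JTE (log2 fold change -0.69 ± 0.17 SE, adjusted p = 0.00241). Aplnr, its receptor, had 41.4, 33.2 and 62.5 in control and 13.8, 17.4 and 14.9 in JTE (log2 fold change -1.56 ± 0.23 SE, adjusted p = 2.34e-05). All 3 genes were separated between the groups, and Esm1 alone of them was higher in JTE. Among 7 other tip cell genes (Angpt2, Dll4, Cxcr4, Pdgfb, Nid2, Unc5b and Adm), 2 were called higher in JTE and 3 lower. Of all genes, 25.9% were higher and 26.2% lower. Their median log2 fold change was 0.01.

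Of the capillary genes, Plvap fell slightly and Gpihbp1 did not pass the test. Plvap had 394, 313 and 407 normalised counts in control and 302, 291 and 302 in JTE (log2 fold change -0.31 ± 0.08 SE, adjusted p = 0.00389). Gpihbp1, which carries lipoprotein lipase across capillaries, had 339, 341 and 337 in control and 428, 385 and 349.7 in JTE (log2 fold change 0.19 ± 0.09 SE, adjusted p = 0.0916). Every JTE library was above control for Gpihbp1. Emcn, a sialomucin of capillaries and veins, had 171, 166 and 176 in control and 198, 162 and 163 in JTE (log2 fold change 0.03 ± 0.12 SE, adjusted p = 0.879), and its groups overlapped.

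The members thus changed relative to each other. Set against Cdh5 in the same library, as a ratio of RPKM, Tie1 stood at 0.333 to 0.367 in control and 0.328 to 0.354 in JTE. Tek stood at 0.0243 to 0.0337 in control and 0.0117 to 0.0157 in JTE, and Flt1 at 0.0378 to 0.0437 and 0.0173 to 0.0255. Esm1 stood at 0.354 to 0.418 of Cdh5 in control and 1.12 to 1.38 in JTE. The Tie1 ranges overlapped, and those of Tek, Flt1 and Esm1 did not.

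Other cell types moved in the same comparison. All 10 macrophage and leukocyte markers fell, and their summed level was 354 to 380 CPM (read counts scaled to effective library size) in control and 113 to 130 in JTE. The 7 pericyte markers summed to 652 to 767 in control and 636 to 814 in JTE, with 1 called higher and 1 lower. Of 6 epithelial markers, 5 fell. Beside all of these counts, 25.9% of all genes were called higher and 26.2% lower. The part of these shifts in the fall of the endothelial genes was not tested. Of the 28 calls, 21 also passed in every fit without 1 library and under every other setting with the same threshold. Eng, Flt4, Kdr, Lmo2, Mmrn2, Rasip1 and Tal1 lost their call in at least 1 fit without 1 library, at adjusted p between 0.0504 and 0.168, and without control 3 the members called lower numbered 20. A stricter criterion took protein-coding genes with adjusted p at most 0.1, fold above 1.6 or below 0.6 and mean count over 100. It called 1 member higher and 6 lower, against 3.08% and 5.18% of all genes. Those shares, here and below, also count genes that could not meet it, being non-coding or of low count.

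**Figure D2:**
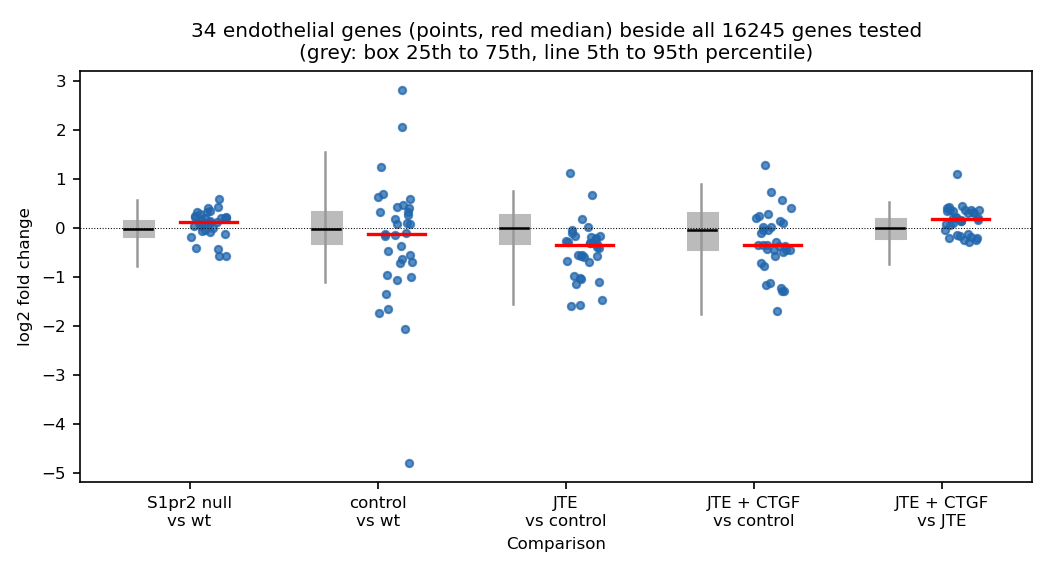
log2 fold changes (vertical axis) of the 34 endothelial genes (points, red line at their median) in 5 comparisons, beside all 16245 genes tested (grey box from the 25th to the 75th percentile, black line at the median, grey line from the 5th to the 95th percentile). In JTE versus control the members' median is -0.35 and that of all genes is 0.00, and in the libraries labelled S1pr2 null versus wt the values are 0.13 and -0.01.

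The second comparison asked how the same genes differ in pancreata labelled S1pr2 null. Here 6 members were higher than in wt (Calcrl, Fli1, Sox17, Ptprb, She and Tie1), 5 were lower (Apln, Gpihbp1, Cd34, Esm1 and Eng) and 23 did not pass the test. Of all genes, 25.8% were called, 12.6% higher and 13.3% lower. The members' median log2 fold change was 0.13, against -0.01 for all genes. Normalised counts did not overlap for 21 of 34 members, 15 of them above wt, against 46.3% of all genes, 22.5% above and 23.8% below.

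Pecam1, Cdh5 and Kdr did not pass the test. Cdh5 had 2086, 2096 and 2066 normalised counts in wt and 2075, 1967 and 2054 in the libraries labelled S1pr2 null (log2 fold change -0.04 ± 0.08 SE, adjusted p = 0.791). Pecam1 had 1311, 1212 and 1327 and 1217, 1377 and 1379.7 (log2 fold change 0.05 ± 0.08 SE, adjusted p = 0.702). Kdr had 1417, 1413 and 1334 and 1501, 1463 and 1449 (log2 fold change 0.08 ± 0.07 SE, adjusted p = 0.416). The 95% intervals of these 3 log2 fold changes were -0.21 to 0.13, -0.11 to 0.21 and -0.06 to 0.23. Cd34 was lower, with 1339.5, 1200.1 and 1277 in wt and 980.3, 934 and 920.3 in the libraries labelled S1pr2 null (log2 fold change -0.43 ± 0.06 SE, adjusted p = 0.00013).

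The members that were higher had small differences. Calcrl, the receptor for adrenomedullin, had 225, 207 and 246 normalised counts in wt and 342, 343 and 336 in the libraries labelled S1pr2 null (log2 fold change 0.59 ± 0.16 SE, adjusted p = 0.0108). Fli1 had 291, 261 and 279 and 365, 393 and 370.1 (log2 fold change 0.44 ± 0.10 SE, adjusted p = 0.00332). Sox17 had 108, 117 and 115 and 148, 140.3 and 164 (log2 fold change 0.41 ± 0.10 SE, adjusted p = 0.00767). The groups were separated for all 3. Tie1, with 829, 831 and 836 in wt and 941, 959 and 968 in the libraries labelled S1pr2 null, differed by only 0.20 on the log2 scale but varied little between replicates (log2 fold change 0.20 ± 0.07 SE, adjusted p = 0.0355).

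The tip cell and capillary genes held 3 of the 5 members that were lower. Apln had 332, 324 and 324 normalised counts in wt and 219.8, 223 and 213 in the libraries labelled S1pr2 null (log2 fold change -0.58 ± 0.12 SE, adjusted p = 0.00184). Gpihbp1 had 88.2, 79.5 and 76.0 and 48.1, 52.6 and 63.1 (log2 fold change -0.57 ± 0.14 SE, adjusted p = 0.00604), and Esm1 had 72.9, 71.8 and 84.5 and 58.9, 63.7 and 51.3 (log2 fold change -0.40 ± 0.11 SE, adjusted p = 0.0192). None of the 3 overlapped. Aplnr had 1287, 1307 and 1231 and 1482, 1329 and 1382 (log2 fold change 0.13 ± 0.08 SE, adjusted p = 0.219) and Plvap had 925, 939.6 and 949 and 973, 946 and 914 (log2 fold change 0.01 ± 0.07 SE, adjusted p = 0.933), neither of which passed the test.

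Values of the remaining defining genes overlapped. Emcn had 299, 257 and 234 normalised counts in wt and 314, 291 and 302 in the libraries labelled S1pr2 null, Flt4 had 395, 374 and 438 and 368, 389.7 and 479.5, Erg had 188, 204 and 167 and 207, 195 and 201, and Vwf had 477, 428 and 515 and 508, 548 and 509. In the same comparison 4 of 7 pericyte markers were higher (603 to 648 CPM summed in wt, 803 to 860 in the libraries labelled S1pr2 null) and all 6 epithelial markers were lower. Of 7 mesenchyme genes 2 were higher and 4 lower, and of 9 erythroid markers 2 were higher and 3 lower. Among all genes 12.6% were higher and 13.3% lower. Hbb-y had 5605, 3012 and 3398 raw reads in wt and 9952, 12926 and 10072 in the libraries labelled S1pr2 null. Hbb-bs had 4721, 4539 and 4270 and 1762, 2727 and 2426. The part of any of these shifts in the endothelial values was not tested. Long genes were higher in this comparison, with a median log2 fold change of 0.14 for genes of 12000 to 20000 exonic bases (among genes with a mean normalised count over 50). With an offset for gene length, Ptprb, with 11912 bases, moved from 0.34 to 0.22 and lost its call (adjusted p = 0.17), Tie1 lost its call (adjusted p = 0.054) and Ecscr was called higher (adjusted p = 0.0462). Only Fli1, Sox17, Cd34, Apln, Gpihbp1 and She kept their call in every fit without 1 library. Tie1, Ptprb, Eng, Calcrl and Esm1 lost it in at least 1, at adjusted p between 0.0522 and 0.139, so that 3 members were called higher without wt 2 and 3 lower without S1pr2 null 3. Under the stricter criterion 0 members were called higher and 0 lower, against 1.39% and 1.62% of all genes, with edgeR calling 11 at the threshold above.

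Both responses can be compared directly, as the JTE response (JTE minus control) less the difference between the libraries labelled S1pr2 null and wt, an interaction contrast in the same fit. This difference was negative and passed the test for 23 of 34 members, positive for Esm1 and Gpihbp1, and did not pass for 9, against 42.9% of all genes called, 21.5% in each direction. It was -1.83 ± 0.25 (SE) on the log2 scale for Tek, -1.46 ± 0.15 for Fli1 and 1.52 ± 0.13 for Esm1. Treatment or labelled genotype, age, tissue and culture of the samples differed together here and cannot be told apart, and the S1pr2 reads went against the genotype label.

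The third comparison asked what adding CTGF to JTE013 did. Relative to JTE, 11 members were higher in JTE + CTGF (Aplnr, Ramp2, Plvap, Emcn, Gpihbp1, Eng, Cd34, Esam, Sox18, Rasip1 and Esm1), Kdr was lower and 22 did not pass the test. Of all genes, 30.4% were called, 13.6% higher and 16.8% lower. The members' median log2 fold change was 0.18, against 0.00 for all genes. The groups did not overlap for 10 members, 8 of them above JTE and 2 below, against 40.2% of all genes, 19.6% above and 20.6% below.

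Aplnr had 13.8, 17.4 and 14.9 normalised counts in JTE and 34.3, 29.8 and 35.5 in JTE + CTGF, 2.15-fold higher (log2 fold change 1.11 ± 0.25 SE, adjusted p = 0.00302). Ramp2 had 358, 360.4 and 407 in JTE and 503, 509.6 and 539 in JTE + CTGF (log2 fold change 0.46 ± 0.07 SE, adjusted p = 0.000149). Plvap had 302, 291 and 302 and 378, 419 and 402 (log2 fold change 0.42 ± 0.08 SE, adjusted p = 0.000967). All 3 were separated between the groups, although Aplnr stayed low in both. Gpihbp1 had 428, 385 and 349.7 and 448, 526 and 535 (log2 fold change 0.38 ± 0.09 SE, adjusted p = 0.0045), Emcn had 198, 162 and 163 and 188, 229 and 262 (log2 fold change 0.38 ± 0.12 SE, adjusted p = 0.0278), and Esm1 had 1146, 1127 and 1253 and 1302, 1339 and 1329 (log2 fold change 0.17 ± 0.06 SE, adjusted p = 0.0321).

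Tek, Flt1 and Fli1, which were lower in JTE than in control, did not pass the test between JTE and JTE + CTGF. Tek had 34.3, 47.0 and 30.8 normalised counts in JTE + CTGF (log2 fold change 0.30 ± 0.25 SE, adjusted p = 0.397), Flt1 had 88.0, 105 and 92.4 (log2 fold change -0.24 ± 0.15 SE, adjusted p = 0.25) and Fli1 had 82.3, 123 and 119.6 (log2 fold change -0.21 ± 0.13 SE, adjusted p = 0.225). Their intervals were wide, with a 95% interval of -0.23 to 0.83 for Tek and -0.56 to 0.08 for Flt1. Kdr had 927, 878 and 967 in JTE and 747, 842 and 754 in JTE + CTGF (log2 fold change -0.24 ± 0.07 SE, adjusted p = 0.0209), the groups being separated.

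Long genes were lower in JTE + CTGF across the whole table. Genes of 6000 to 8000 exonic bases had a median log2 fold change of -0.16 against JTE. Kdr has 7278 bases, and with an offset for gene length its value was -0.05 with adjusted p = 0.7. Gpihbp1, Esm1, Sox18 and Rasip1 also lost their call with that offset, and Tie1 (adjusted p = 0.0296), Calcrl (adjusted p = 0.0469) and Vwf were called higher. Vwf, with 16064 bases, moved from 0.37 to 0.84 on the log2 scale (adjusted p = 0.0301). In addition, the 9 erythroid markers summed to 18.2 to 49.4 CPM in JTE and 107 to 184 in JTE + CTGF, and the part of blood cells in the values was not tested. Emcn, Esm1, Rasip1, Sox18 and Kdr lost their call in at least 1 fit without 1 library, and the members called higher numbered 7 without JTE 2 and 12 without JTE + CTGF 1. Under the stricter criterion 0 members were called in either direction, against 0.443% of all genes higher and 1.3% lower, with edgeR calling 12 at the threshold above.

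Against the control explants, which the JTE comparison also used, JTE + CTGF had 18 members lower, 6 higher and 10 without a call, where 61.1% of all genes were called, 33% lower and 28.1% higher. The median log2 fold change was -0.35 over the members and -0.03 over all genes, and the groups did not overlap for 24 members, 18 of them below control, against 64.8% of all genes, 34.4% below and 30.4% above. Flt1 had 88.0, 105 and 92.4 normalised counts in JTE + CTGF (log2 fold change -1.70 ± 0.13 SE, adjusted p = 1.72e-08). Ptprb had 44.6, 59.5 and 42.6 (log2 fold change -1.28 ± 0.15 SE, adjusted p = 1.31e-06) and Tek was at -1.29 ± 0.21 (SE). The members higher than control were Esm1 (log2 fold change 1.29 ± 0.06 SE, adjusted p = 4.25e-11), Sox17, with 127, 126 and 134 (log2 fold change 0.74 ± 0.12 SE, adjusted p = 2.93e-05), Gpihbp1 (log2 fold change 0.57 ± 0.09 SE, adjusted p = 4.41e-05), Emcn, Sox18 and Eng. Egfl7, Cd34, Ramp2, Calcrl, Mmrn2, Rasip1, Tal1, Lmo2, Aplnr and Plvap did not pass the test.

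Other members called lower were Kdr, Tie1, Pecam1, Cdh5, Esam, Clec14a, Ecscr, She, Erg, Fli1, Sox7, Vwf, Nos3, Apln and Flt4. Cdh5 had 1470.4, 1767 and 1558 normalised counts in JTE + CTGF, Pecam1 779.8, 945 and 843, Tie1 785, 907 and 807, Erg 179.5, 175 and 187 and Vwf 76.6, 117 and 71.1. Flt4 had 202, 242 and 176 and Apln 53.7, 53.8 and 48.6. Sox18, Sox7, Apln and Emcn lost their call in at least 1 fit without 1 library, at adjusted p between 0.0572 and 0.191. Long genes were lower here too, with a median log2 fold change of -0.33 for genes of 12000 to 20000 exonic bases. With the length offset, Vwf moved from -0.78 to -0.37 and lost its call (adjusted p = 0.179), Sox18 lost its call as well, and Aplnr was called lower (adjusted p = 0.0481). Under the stricter criterion 2 members were called higher and 6 lower, against 4.39% and 7.39% of all genes.

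**Figure D3:**
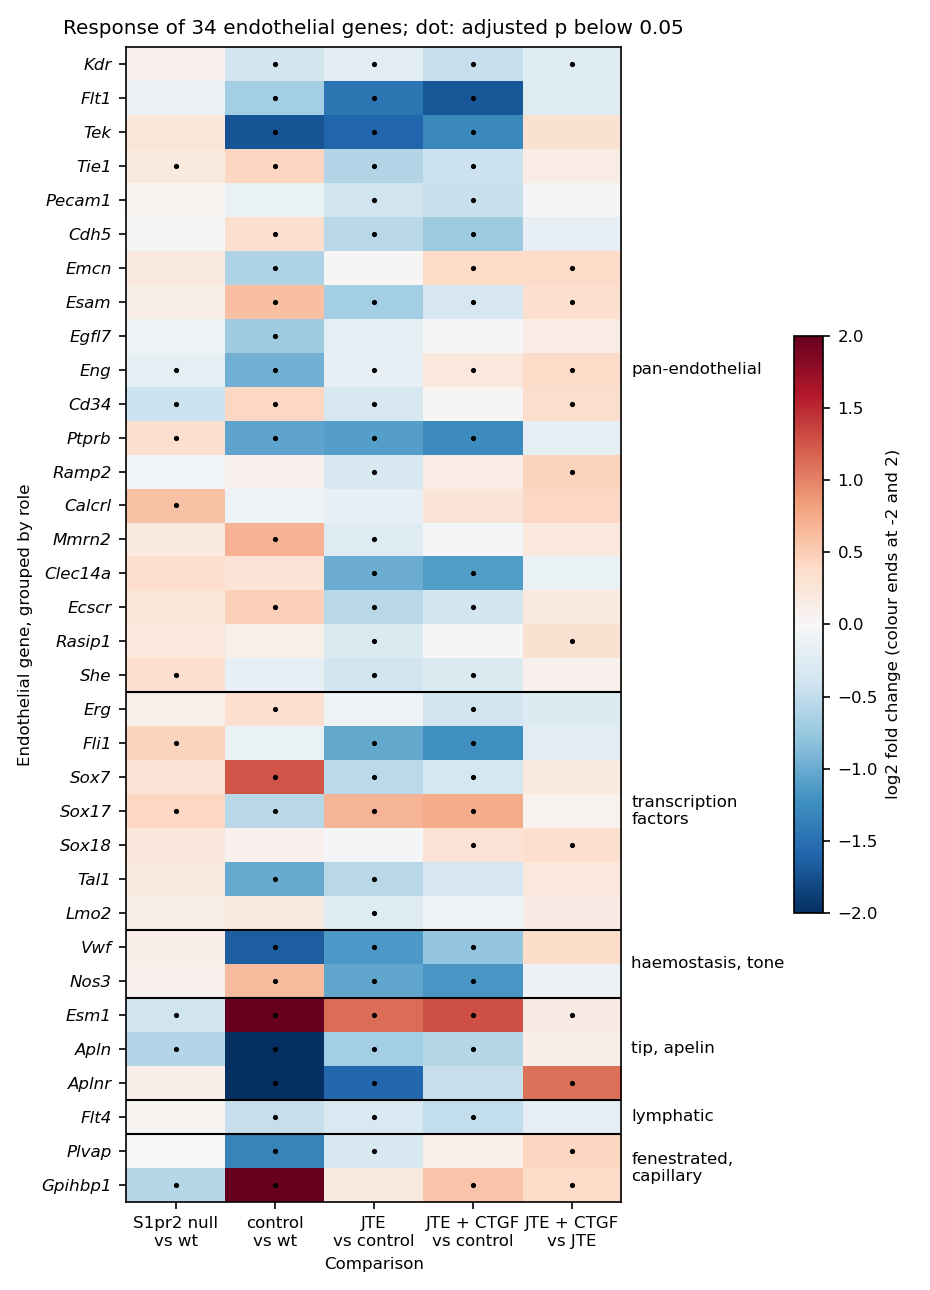
log2 fold change (colour, ending at -2 and 2) of the 34 endothelial genes (rows, grouped by role) in 5 comparisons (columns), with a dot where the adjusted p was below 0.05. The column of JTE versus control is mostly blue with dots (26 lower), that of JTE + CTGF versus JTE has 11 dots on the higher side and 1 on the lower, and Esm1 and Sox17 are higher than control in both antagonist groups.

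The fourth comparison set control explants against fresh wt pancreas. Culture, the age of the tissue and the dissected part differ together here. Of the 34 members, 11 were higher in control, 14 were lower and 9 did not pass the test, where 57.8% of all genes were called, 28.5% higher and 29.3% lower. The groups did not overlap for 27 members, 13 of them above wt and 14 below, against 63.8% of all genes, 30.7% above and 33.1% below. The members' median log2 fold change was -0.12, and the spread around it was wide, from -4.80 to 2.82. Scaling by library size alone moved the median of all genes from -0.02 to -0.17 and that of the members to -0.26, so changes are read relative to that.

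The apelin pair and Esm1 moved most. Aplnr had 1287, 1307 and 1231 normalised counts in wt and 41.4, 33.2 and 62.5 in control, 27.9-fold lower (log2 fold change -4.80 ± 0.11 SE, adjusted p = 3.02e-15). Apln had 332, 324 and 324 in wt and 61.6, 74.4 and 96.8 in control (log2 fold change -2.07 ± 0.14 SE, adjusted p = 1.49e-09). Esm1 had 72.9, 71.8 and 84.5 in wt and 543, 523 and 559 in control, 7.08-fold higher (log2 fold change 2.82 ± 0.08 SE, adjusted p = 4.14e-14). The groups were far apart for all 3 genes. Among the 7 other tip cell genes, 6 were higher in control and 1 lower, where 28.5% and 29.3% of all genes were. Their median log2 fold change was 1.33.

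The capillary genes moved in opposite directions. Gpihbp1 had 88.2, 79.5 and 76.0 normalised counts in wt and 339, 341 and 337 in control (log2 fold change 2.06 ± 0.11 SE, adjusted p = 1.21e-10). Plvap had 925, 939.6 and 949 in wt and 394, 313 and 407 in control (log2 fold change -1.34 ± 0.07 SE, adjusted p = 2.12e-10). Their ratio to Cdh5 changed likewise, from 0.184 to 0.212 in wt to 0.562 to 0.718 in control for Gpihbp1 and from 0.877 to 0.908 to 0.260 to 0.314 for Plvap.

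Tek and Vwf fell and Sox7 rose among the rest. Tek had 309.7, 282 and 323 normalised counts in wt and 87.1, 68.4 and 119.8 in control (log2 fold change -1.73 ± 0.15 SE, adjusted p = 6.36e-08), and Vwf had 477, 428 and 515 and 137, 178 and 139 (log2 fold change -1.64 ± 0.18 SE, adjusted p = 7.71e-07). Sox7 had 221, 218 and 241 in wt and 481, 506 and 636 in control (log2 fold change 1.25 ± 0.12 SE, adjusted p = 1.81e-07). None of the 3 overlapped between the groups. Emcn (log2 fold change -0.62 ± 0.12 SE, adjusted p = 0.000255), Kdr (log2 fold change -0.37 ± 0.07 SE, adjusted p = 0.000252), Flt4 (log2 fold change -0.47 ± 0.11 SE, adjusted p = 0.00118) and Sox17 (log2 fold change -0.56 ± 0.11 SE, adjusted p = 0.000464) were lower, and Cdh5 (log2 fold change 0.33 ± 0.08 SE, adjusted p = 0.0019), Tie1 (log2 fold change 0.44 ± 0.07 SE, adjusted p = 2.93e-05) and Erg (log2 fold change 0.33 ± 0.10 SE, adjusted p = 0.0114) were higher, with Pecam1 not passing the test (log2 fold change -0.14 ± 0.08 SE, adjusted p = 0.126).

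The other members higher in control were Mmrn2, Nos3, Esam, Ecscr and Cd34, by 0.42 to 0.69 on the log2 scale. Those lower were Ptprb (log2 fold change -1.06 ± 0.12 SE, adjusted p = 9.19e-07), Tal1 (log2 fold change -1.01 ± 0.20 SE, adjusted p = 0.000315), Eng (log2 fold change -0.97 ± 0.06 SE, adjusted p = 4.11e-10), Egfl7 (log2 fold change -0.71 ± 0.08 SE, adjusted p = 1.62e-06) and Flt1 (log2 fold change -0.69 ± 0.11 SE, adjusted p = 3.82e-05). Ramp2, Calcrl, Clec14a, Rasip1, She, Fli1, Sox18 and Lmo2 did not pass the test, with log2 fold changes between -0.17 and 0.27.

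The 9 erythroid markers, genes of red blood cells, summed to 1154 to 1349 CPM in wt and 14.0 to 36.0 in control. The 6 platelet markers summed to 16.6 to 21.5 and 4.0 to 6.5. Vwf and Tal1 are also expressed in the megakaryocyte and erythroid lineages, and the part of those cells in their fall was not tested. Under scaling by library size alone, Cdh5 and Erg lost their call, and Pecam1, Fli1 and She were called lower. Erg also lost its call without wt 3, at adjusted p = 0.0672. Under the stricter criterion 4 members were called higher and 8 lower, against 7.99% and 4.14% of all genes.

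Genes that act on or mark vessels and are not among the 34 gave further detail. Of 13 ligands and coreceptors 10 were tested, and in JTE 5 rose and 3 fell, where 25.9% of all genes were higher and 26.2% lower. Their median log2 fold change was 0.11, against 0.00 for all genes. Angpt2, the antagonist ligand of Tek, had 119, 117 and 121 normalised counts in control and 346, 325 and 504 in JTE (log2 fold change 1.72 ± 0.17 SE, adjusted p = 2.69e-07), and Angpt1, its agonist ligand, had 74.3, 50.3 and 86.4 and 179.9, 213 and 193 (log2 fold change 1.47 ± 0.18 SE, adjusted p = 4.24e-06). Vegfa had 2497, 2818 and 2163 and 5799, 5469 and 4424 (log2 fold change 1.07 ± 0.11 SE, adjusted p = 4.29e-07), whereas Vegfc, the Flt4 ligand, fell by 0.68 and the coreceptor Nrp1 by 0.67 on the log2 scale. In each of these 3 ligands that rose, every JTE library was above every control library, while their receptors Tek, Flt1 and Kdr were lower.

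Of 10 arterial genes, 8 fell and 1 rose (Unc5b, log2 fold change 0.94 ± 0.07 SE, adjusted p = 2.71e-08) in JTE, against 26.2% lower and 25.9% higher among all genes, and their median log2 fold change was -0.32. The 10 were Gja4, Gja5, Efnb2, Hey1, Dll4, Bmx, Unc5b, Cxcr4, Notch4 and Jag2. Dll4, Unc5b and Cxcr4 were also counted among the other tip cell genes, so the arterial and tip cell counts share genes. Angpt2 was counted both as a ligand and as a tip cell gene, and Nrp2 both as a coreceptor and as a venous gene. Gja5, the connexin of arterial endothelium and also of heart muscle, had 190.0, 131 and 342 normalised counts in control and 12.7, 6.13 and 8.37 in JTE (log2 fold change -4.59 ± 0.39 SE, adjusted p = 5.81e-08). Bmx, a kinase of arterial endothelium, had 3, 6 and 8 raw reads in control and 0, 1 and 0 in JTE, too few for a fold. Gja4, Notch4 and Dll4, the last a Notch ligand of arteries and tip cells, fell by 0.83, 0.40 and 0.37. Gja5 was thus far lower in all JTE libraries, and none of the 5 venous genes passed the test.

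Of 6 further lymphatic genes, 3 fell in JTE and 3 did not pass the test, where 52.2% of all genes were called, 26.2% lower. Ccl21a, a chemokine of lymphatic endothelium, had 59.5, 80.4 and 58.3 normalised counts in control and 9.52, 10.2 and 11.2 in JTE (log2 fold change -2.66 ± 0.22 SE, adjusted p = 5.05e-08). Mmrn1 had 27.6, 34.2 and 39.6 and 10.6, 9.19 and 11.2 (log2 fold change -1.70 ± 0.27 SE, adjusted p = 5.21e-05), and Lyve1, a hyaluronan receptor that macrophages carry too, had 97.7, 80.4 and 107 and 31.7, 40.8 and 38.1 (log2 fold change -1.36 ± 0.17 SE, adjusted p = 4.27e-06). None of the 3 overlapped, but Prox1, the factor that specifies lymphatic endothelium and is also expressed in pancreatic epithelium, did not pass the test. All 6 were lower in control than in wt, where 29.3% of all genes were lower.

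In the libraries labelled S1pr2 null, Lyve1 (log2 fold change 0.62 ± 0.10 SE, adjusted p = 0.000321) and Mmrn1 (log2 fold change 0.45 ± 0.13 SE, adjusted p = 0.0186) were higher than in wt among the lymphatic genes, and Gja5 did not pass the test (log2 fold change 0.24 ± 0.23 SE, adjusted p = 0.496). In control against wt, 8 of 10 arterial genes were higher, where 28.5% of all genes were, among them Cxcr4 (log2 fold change 2.67 ± 0.10 SE, adjusted p = 2.34e-12) and Dll4 (log2 fold change 1.62 ± 0.10 SE, adjusted p = 9.13e-10). Cxcr4, Dll4 and Unc5b are also part of the tip cell count of that comparison. S1pr1, the S1P receptor of endothelium, had 193, 195 and 210.2 normalised counts in wt and 354, 372 and 393 in control (log2 fold change 0.90 ± 0.10 SE, adjusted p = 5.08e-07), and 273, 236 and 248 in JTE (log2 fold change -0.56 ± 0.09 SE, adjusted p = 9.44e-05). Most of these genes are also expressed outside endothelium.

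**Figure D4:**
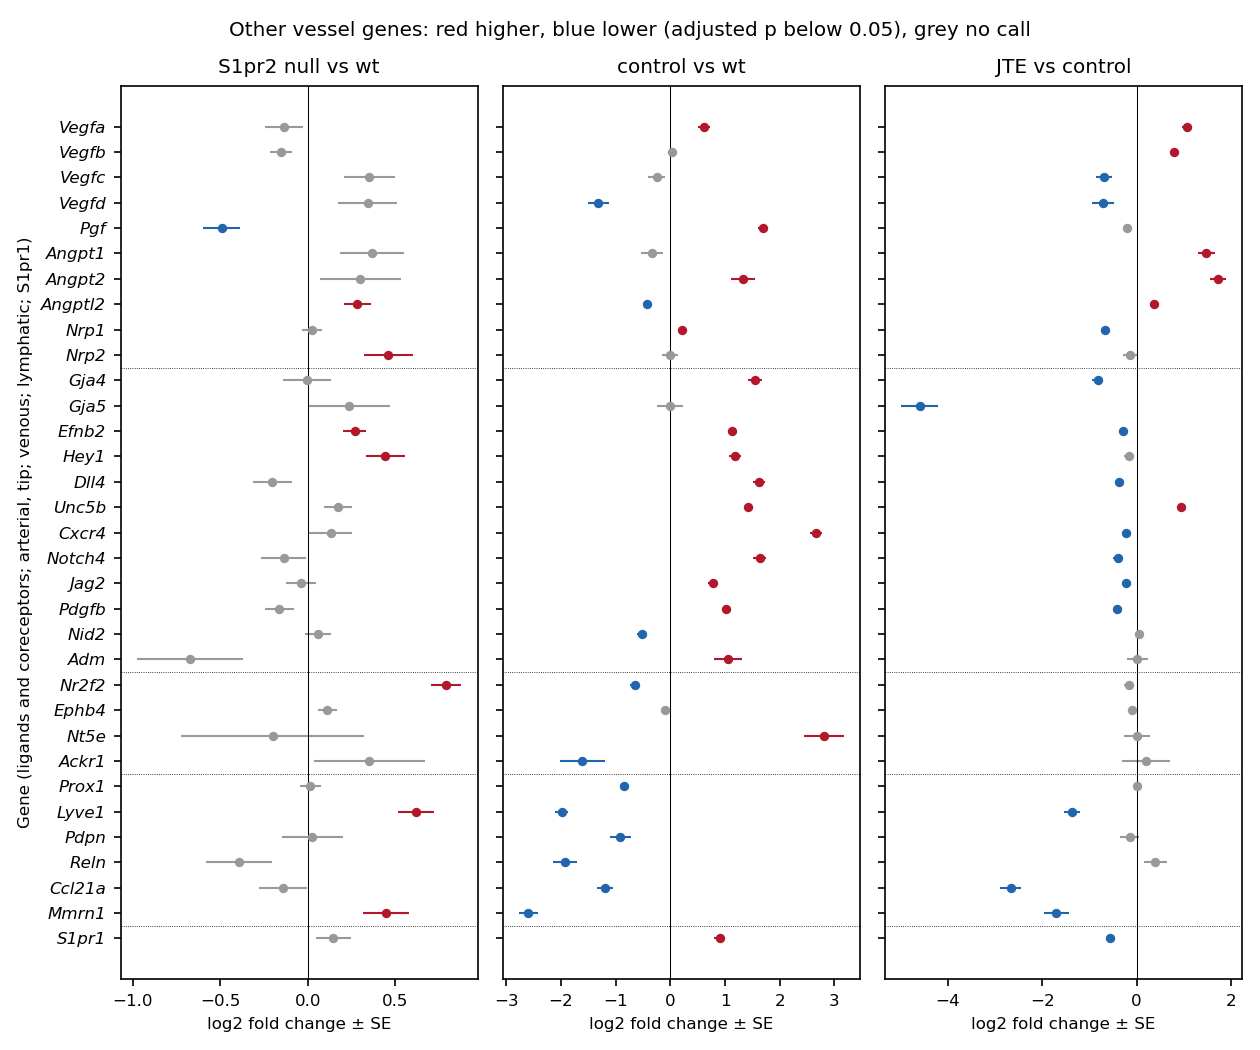
log2 fold change with its standard error (horizontal axes, scaled separately) of other vessel genes (rows, by role) in 3 comparisons, red where higher, blue where lower and grey where the test was not passed. In JTE versus control Gja5 (-4.59) and Ccl21a (-2.66) lie furthest to the left and Angpt2 (1.72) furthest to the right.

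Summed over all 34 members, the level in CPM was 1457 to 1474 in wt, 1497 to 1517 in the libraries labelled S1pr2 null, 1255 to 1444 in control, 1025 to 1112 in JTE and 1090 to 1253 in JTE + CTGF. The JTE range lay below the control range, and the JTE + CTGF range just below it as well. The 7 transcription factors summed to 120 to 122 in wt and 144 to 146 in the libraries labelled S1pr2 null, with no overlap.

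**Figure D5:**
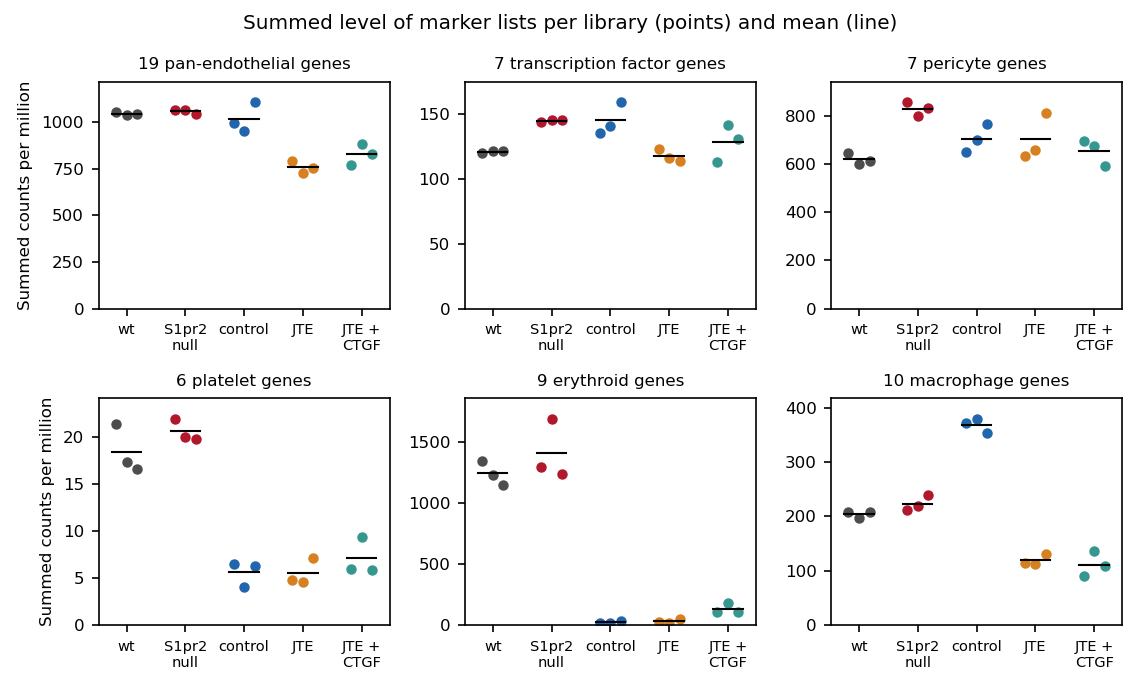
Summed CPM (vertical axes, from 0) of 2 endothelial lists and 4 lists of other cell types, 1 point per library and a line at the mean (n = 3). The pan-endothelial genes are lower in both antagonist groups than in control, the macrophage genes are lower in both as well (113 to 130 in JTE against 354 to 380 in control), the pericyte genes overlap among explants, and the erythroid genes are far lower in the explants than in the fresh groups.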

How the data were processed

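RNA-seq libraries were made by the authors from poly(A) RNA of pooled pancreata. The deposited values are raw read counts per gene, which the authors made by aligning single-end reads to mm10 with GSNAP, keeping unique alignments, and counting with featureCounts 1.4.6 on Ensembl genes. The submitters' notes also list bcl2fastq 1.8.4 and DESeq2 1.6.2. The strand setting of the counting is not given in the sources used here. Counts of the 8 members whose span overlaps another gene (Egfl7, Eng, Plvap, Ramp2, Ecscr, Nos3, Lmo2 and Rasip1) may therefore be affected. Spans were taken from the first to the last base of a gene, introns included, and overlap of the counted exons was not checked.

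Of 25292 identifiers, 97.9% had a symbol. Counts of all 15 libraries were fitted in edgeR 4.0.16 (R 4.3.3) with TMM factors, filterByExpr, 1 coefficient per group and the two-sided quasi-likelihood F-test, and p-values were adjusted by Benjamini-Hochberg over all 16245 genes tested. A gene was called at an adjusted p below 0.05. Normalised counts are counts divided by the relative effective library size, and RPKM used the deposited exonic lengths. The code was tested on simulated data. The study states that its 3 samples a group were independent pools. Alternatives were RLE factors, library size alone, DESeq2 1.42.0, no filter, the comparison's libraries only, a replicate block and each library left out. Further ones were the study's criterion and a length offset, the latter chosen after seeing the data. That criterion took protein-coding genes with adjusted p at most 0.1, fold above 1.6 or below 0.6 and mean count over 100.

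The members and lists were chosen with earlier results of these data known. Values in every library are given for Pecam1, Cdh5, Kdr, Tie1, Emcn, Plvap, Gpihbp1, Esm1, Apln, Aplnr, Flt4, Erg, Sox17 and Vwf and for up to 3 called members with the largest rise and fall in each comparison. Mesenchyme and mesothelium lists were computed as well: in JTE against control 2 of 7 mesenchyme genes were called higher and 3 lower, and 3 of 4 mesothelium genes lower. Among all genes 25.9% were called higher and 26.2% lower there.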

Additional observations from a re-analysis of the deposited data

Results flagged for a closer look

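For 25 of the 34 endothelial genes, the response to JTE013 in explants differed from the difference between the libraries labelled S1pr2 null and wt, by the test of the interaction itself. Of all genes tested, 42.9% passed this test. The response was more negative in explants for 23 members and more positive for Esm1 and Gpihbp1.

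The difference of responses on the log2 scale was -1.83 ± 0.25 (SE), edgeR adjusted p = 2.21e-05, for Tek, -1.70 ± 0.24 (SE), edgeR adjusted p = 3.15e-05, for Aplnr and -1.46 ± 0.15 (SE), edgeR adjusted p = 1.2e-06, for Fli1. It was 1.52 ± 0.13 (SE), edgeR adjusted p = 1.28e-07, for Esm1 and 0.76 ± 0.17 (SE), edgeR adjusted p = 0.00151, for Gpihbp1. The other members whose explant response was more negative were Ptprb (-1.44), Flt1 (-1.35), Clec14a (-1.32), Vwf (-1.28), Nos3 (-1.12), Sox7 (-0.83), Ecscr (-0.80), Esam (-0.79), Tie1 (-0.79), Tal1 (-0.76), Calcrl (-0.75), She (-0.72), Cdh5 (-0.52), Rasip1 (-0.50), Pecam1 (-0.45), Mmrn2 (-0.43), Lmo2 (-0.38), Plvap (-0.32), Kdr (-0.30) and Ramp2 (-0.26).

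Emcn, Egfl7, Eng, Cd34, Erg, Sox17, Sox18, Apln and Flt4 did not pass this test. Of the 25 calls, 19 also passed in every fit without 1 library and under every other setting run for this contrast, and without control 3 the negative calls numbered 19. With 3 libraries a group, no search for single outlying libraries was made. The explant and fresh samples differ in age, culture and dissected tissue together with the treatment or labelled genotype, and these cannot be told apart. S1pr2 reads were higher in the fresh libraries labelled S1pr2 null than in wt. Counts per gene do not tell from which exons they came, so they do not check whether a functional transcript was made.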

How the results depend on the processing

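Of the 204 member values (34 members in 6 contrasts), no called value changed sign under any setting. With RLE factors all 204 kept their call or lack of one, with DESeq2 and with the replicate block 202 did, and with no filter on low counts 198 did. Members without a call in either fit were not counted as reversed when their small difference changed sign.

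Fitting the comparison's libraries alone gave 12 members higher in the libraries labelled S1pr2 null and 7 higher in JTE + CTGF than in JTE. Shares of all genes called were computed for the main fit only, so counts from other fits have none beside them. Scaling by library size alone gave 2 members lower in JTE + CTGF than in JTE and a median of -0.26 in control against wt, and the length offset gave 0 lower in JTE + CTGF than in JTE. Under the study's criterion, fewer members were called because it also sets a fold and a count: 0 higher and 0 lower in the libraries labelled S1pr2 null, 1 and 6 in JTE against control, 2 and 6 in JTE + CTGF against control, 0 and 0 in JTE + CTGF against JTE, and 4 and 8 in control against wt.

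Without 1 library at a time, the members called higher in the libraries labelled S1pr2 null ranged from 3 to 7 and lower from 3 to 5, and in JTE + CTGF against JTE higher from 7 to 12 and lower from 0 to 2, with a median from 0.095 to 0.21. The median in JTE + CTGF against control ranged from -0.40 to -0.25, the latter without control 3. Members called lower in JTE ranged from 20 to 26. Where a group was left with 2 libraries, the spread was shared across groups.

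With the replicate number as a block, 25 members were called lower in JTE (Mmrn2 lost its call, adjusted p = 0.0502) and Ramp2 lost its call in the interaction contrast. Deviations of same-numbered libraries correlated at -0.097 to 0.25, and in no comparison were all 3 above 0.1, so the numbers were not taken to pair samples. Precision is limited by 3 libraries a group and, for Bmx, Aplnr and Tek in JTE, by low counts.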
